A study of Mus musculus with 12 samples.

Results

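The genes of 3 metabolic routes of immune suppression, extracellular adenosine, tryptophan and arginine, were followed in subcutaneous mouse tumors treated with a CDK4/6 inhibitor and a checkpoint antibody. The 9 genes were taken by symbol from the 34678 symbols in the deposited tables, and comprised the adenosine genes Entpd1, Nt5e, Ada, Adora2a and Adora2b, the tryptophan enzyme Ido1 and the arginine enzymes Arg1, Arg2 and Nos2. Each had 1 entry in every table and a mean of at least 0.1 FPKM (fragments scaled to gene length and to the depth of the library, a level per length), so all 9 were among the 15350 genes tested. All tumors grew from LLC1-shLkb1 cells, a Lewis lung carcinoma line in which a short hairpin RNA targets Lkb1 (gene symbol Stk11), so the vehicle tumors carried the knockdown too. The hosts were C57BL/6 mice of both sexes, 5 to 8 weeks old, in which tumors were treated from 7 days after injection and collected after 2 weeks. The arms were vehicle with a control IgG, palbociclib by mouth on 3 days of each week, an antibody to PD-1 (clone RMP1-14) injected 3 times per week, and the combination of both, with 3 tumors in each of the 4 arms. For clarity, the palbociclib and combination tumors are called palbociclib-treated and the vehicle and anti-PD-1 tumors untreated below, although the latter arms received antibody or vehicle.

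Dying and stressed cells release ATP, which the ectoenzyme CD39 (Entpd1) cuts to AMP and CD73 (Nt5e) cuts further to adenosine. Adenosine acts through G-protein-coupled receptors that include those encoded by Adora2a and Adora2b. These raise cyclic AMP and restrain T cells and NK cells, and it is removed by adenosine deaminase (Ada). IDO1, an enzyme that interferon gamma is known to induce, turns tryptophan into kynurenine, and both the loss of tryptophan and the gain of kynurenine restrain T cells. Arginase 1 and arginase 2 split arginine into ornithine and urea, while the inducible nitric oxide synthase (Nos2) turns arginine into nitric oxide and citrulline. In tumors these enzymes are known mainly from macrophages, other myeloid cells and, for CD73, cancer and stromal cells.

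Some facts of the whole series bear on all values. An estimated 14900000 to 20300000 fragments were behind each tumor. Stk11 was at 7.90 to 11.5 FPKM, and with no tumor lacking the hairpin the knockdown could not be checked. Krt8, an epithelial keratin, was at 62.0 to 276 FPKM, Epcam was at 0 to 1.81 FPKM, and the lung lineage genes Nkx2-1 and Sftpc were at 0 in all 12 tumors. Genes of host tissue were highest in single tumors. Summed fat markers were 129 FPKM in palbociclib replicate 1 and 322 FPKM in combination replicate 1, and skin markers 373 FPKM in palbociclib replicate 2. Skeletal muscle markers were 164 FPKM in palbociclib replicate 3, 150 FPKM in combination replicate 2 and 54.1 FPKM in vehicle replicate 1. Fat markers also differed between arms, at 12.2 to 129 FPKM in palbociclib and 4.28 to 322 FPKM in combination tumors. They were at 2.65 to 5.37 FPKM in vehicle and 2.21 to 6.5 FPKM in anti-PD-1 tumors. All 5 fat, 6 skin and 6 muscle genes were higher with palbociclib. In limma 0 of these were called, with 4 fat genes at an unadjusted p under 0.05. The part of host tissue in the values below was not tested. Replicates are different tumors, and p-values measure the spread between them.

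The 9 genes covered a wide range of levels. Mean FPKM over the 12 tumors was 41.6 for Arg1, 9.87 for Ada, 6.87 for Nos2, 5.66 for Adora2b, 3.03 for Entpd1, 1.85 for Arg2, 0.541 for Adora2a, 0.283 for Nt5e and 0.135 for Ido1. Arg1 thus lay above 93.1% of the genes tested and Ido1 above 3.77% of them. Ada was the steadiest, with a highest tumor 1.69 times the lowest, whereas Nos2 varied 27.2 times and Arg2 22.9 times. Arginase 1 transcript exceeded arginase 2 transcript in every tumor, by 9.49 to 66.5 times, and Adora2b transcript exceeded Adora2a transcript in all of them.

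**Figure D1:**
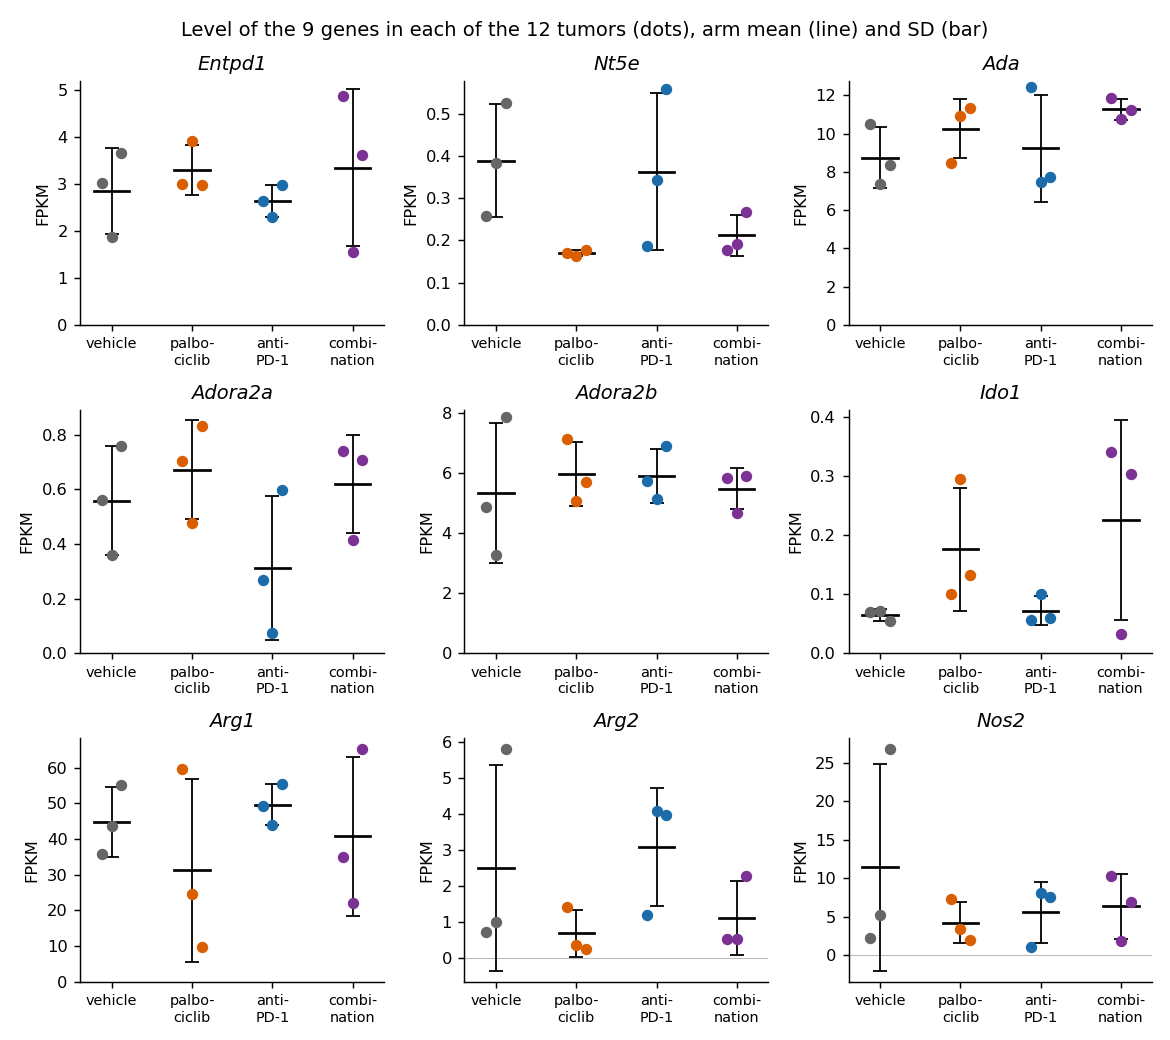
FPKM of the 9 genes in each of the 12 tumors (points, 1 panel and linear axis per gene), with the mean of each arm of 3 tumors as a line and its SD as a bar. The arm means of Nt5e and Arg2 are lowest in the palbociclib-treated arms, and Ido1 is near 0.1 FPKM or below in the 6 untreated tumors. Nos2 spreads widely within arms, and Arg1 does so within the palbociclib-treated arms.

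The first comparison asked whether palbociclib moved these genes, with the palbociclib effect defined as the average of 2 differences, palbociclib minus vehicle and combination minus anti-PD-1. Levels of Nt5e and Arg2 were lower, and those of Ido1 higher, in most palbociclib-treated tumors, but none of these differences passed the test over all genes. Of the 9 genes, 0 had a Benjamini-Hochberg adjusted p-value under 0.05 in limma, against 0.313% of all genes tested (48 of 15350). At an unadjusted p-value under 0.05 there were 2 of the 9, Nt5e and Arg2, against 20.5% of all genes. The median difference of the 9 genes was 0.06 on the log2 scale, beside 0.06 for all genes, with 5 genes higher and 4 lower. In none of the 9 were all 6 palbociclib-treated tumors on one side of all 6 untreated tumors, an arrangement found in 1.43% of genes tested. Gene positions are those of GENCODE M21 on GRCm38, and all differences below are on the log2(FPKM + 0.1) scale, which understates the change of genes near 0.1 FPKM.

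**Figure D2:**
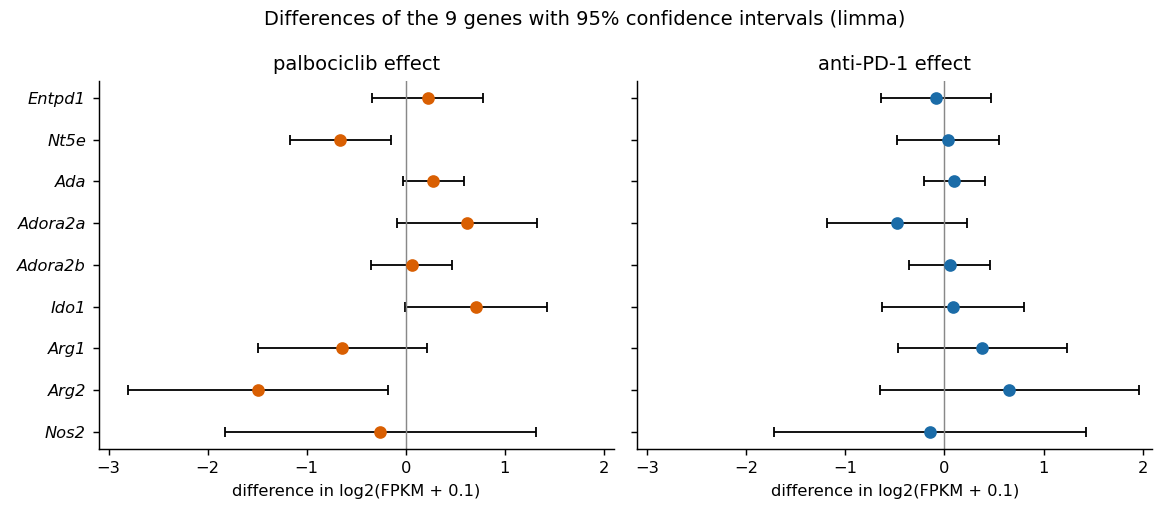
Palbociclib effect (left) and anti-PD-1 effect (right) on the 9 genes as the difference in log2(FPKM + 0.1), points with 95% confidence intervals from limma over 12 tumors. On the left the intervals of Nt5e and Arg2 lie below 0 and the others span it, on the right all span it, and 0 of the 9 genes had an adjusted p-value under 0.05 in either.

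In the adenosine route, the clearest difference was in CD73, the enzyme that makes adenosine from AMP. Nt5e (chr9:88327197-88372092, plus strand) was at 0.259, 0.383 and 0.525 FPKM in the vehicle tumors, 0.169, 0.163 and 0.178 FPKM with palbociclib, 0.187, 0.343 and 0.558 FPKM with anti-PD-1, and 0.178, 0.191 and 0.267 FPKM with the combination. The 3 palbociclib tumors were close together and all below the vehicle tumors, and all 6 palbociclib-treated tumors lay under the median of the untreated ones (0.363 FPKM), although the ranges overlapped through anti-PD-1 replicate 1 and vehicle replicate 1. The palbociclib effect was -0.66 (SE 0.232, 95% interval -1.17 to -0.15), a fold of 0.633, with an unadjusted p of 0.0161 and a limma adjusted p of 0.163. Palbociclib alone against vehicle gave -0.82 (SE 0.329, limma adjusted p = 0.335). These values rest on an estimated 21 to 92 fragments per tumor.

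Markers of hypoxia moved with Nt5e, a gene known to respond to low oxygen, in some tumors and not in others. The sum of 8 hypoxia genes, of 9 listed, was 1040, 1860 and 1840 FPKM in vehicle, 818, 1940 and 1690 FPKM in anti-PD-1, 1230, 1270 and 848 FPKM in palbociclib and 1310, 1320 and 1120 FPKM in combination tumors. The untreated tumors with the lowest sums, vehicle replicate 1 and anti-PD-1 replicate 1, were also those with the least Nt5e. Among the other 4 untreated tumors Nt5e was higher where the sum was lower, and 5 of the 6 palbociclib-treated tumors had higher sums than those 2 tumors while 3 of these 5 had less Nt5e than either. Pgk1 (426 to 1100 FPKM) and Ldha (300 to 444 FPKM) made up most of each sum, so the order of the sums is not that of each gene. Among the same 4 untreated tumors Slc2a1 (150, 171, 172 and 174 FPKM) rose in the order of Nt5e. The other hypoxia genes had neither that order nor its reverse. All 8 genes were lower with palbociclib, by a median of -0.65, and 0 were called in limma (2 at an unadjusted p under 0.05). The part of hypoxia in the Nt5e difference was not tested, and in bulk RNA fewer cells of a type and less RNA per cell cannot be told apart.

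CD39, which supplies the AMP for CD73, overlapped between all arms. Entpd1 (chr19:40612366-40741602, plus strand) was at 3.02, 1.86 and 3.67 FPKM in the vehicle tumors, 3.01, 3.92 and 2.97 FPKM with palbociclib, 2.63, 2.30 and 2.98 FPKM with anti-PD-1, and 4.86, 1.55 and 3.61 FPKM with the combination. The highest and the lowest tumor both belonged to the combination arm, and the palbociclib effect of 0.22 (SE 0.253, 95% interval -0.34 to 0.78) did not pass in limma (adjusted p = 0.637). It was 0.45 without combination replicate 2 and 0.06 without combination replicate 1, and also moved to 0.09 without vehicle replicate 2. Combination replicate 2, the lowest, also had the least of the pan-leukocyte gene Ptprc (0.841 FPKM, against 1.19 to 3.36 FPKM elsewhere). Over the 12 tumors, the genes with the pattern most like that of Entpd1 were Tgm2 (Pearson r = 0.918), Ccr1, Snap23 and Fut11.

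Adenosine deaminase, which breaks adenosine down, was well measured. Ada (chr2:163726584-163750239, minus strand) was at 10.5, 7.38 and 8.38 FPKM in the vehicle tumors, 8.49, 10.9 and 11.3 FPKM with palbociclib, 12.4, 7.49 and 7.73 FPKM with anti-PD-1, and 11.8, 10.7 and 11.2 FPKM with the combination. The combination tumors were uniform and above 5 of the 6 untreated tumors, but the highest tumor of all was anti-PD-1 replicate 1. The palbociclib effect was 0.28 (SE 0.14, 95% interval -0.03 to 0.59), a fold of 1.21, and did not pass in limma (adjusted p = 0.284). Summed macrophage markers were also higher in vehicle replicate 1 (194 FPKM) and anti-PD-1 replicate 1 (225 FPKM) than in the other untreated tumors (116 to 152 FPKM), beside 122 to 262 FPKM in the palbociclib-treated ones, and their part in the Ada values was not tested. Ada tracked most closely with Arpc3 (r = 0.973 over 12 tumors), an actin regulator, and with the proteasome subunits Psma5 (0.967) and Psma4 (0.952).

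Per length, Ada exceeded Nt5e by 13.9 to 66.4 times in the untreated tumors and by 42.1 to 66.9 times in the palbociclib-treated ones. The lowest ratios were those of vehicle and anti-PD-1 replicates 2 and 3, and anti-PD-1 replicate 1 stood with the treated tumors. The sequences before these genes are shown because Nt5e and Ada are the enzymes at which adenosine is made and removed. Each is a 300-base window from RefSeq on GRCm38.p6, from 250 bases before the transcription start to 50 bases after it, on the gene's own strand. Nt5e lies on chr9:88327359-88327658 (plus strand) and Ada on chr2:163750190-163750489 (minus strand), and the capitals in Ada mark a match to the gamma-activated sequence TTCNNNGAA that begins at position -90 from the start.
Nt5e: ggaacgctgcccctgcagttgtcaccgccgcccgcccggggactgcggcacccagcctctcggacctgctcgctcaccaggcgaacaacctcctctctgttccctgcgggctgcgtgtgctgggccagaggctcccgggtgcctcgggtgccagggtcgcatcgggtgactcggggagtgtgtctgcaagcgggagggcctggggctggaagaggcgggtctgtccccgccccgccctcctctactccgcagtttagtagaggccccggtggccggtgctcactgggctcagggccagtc
Ada: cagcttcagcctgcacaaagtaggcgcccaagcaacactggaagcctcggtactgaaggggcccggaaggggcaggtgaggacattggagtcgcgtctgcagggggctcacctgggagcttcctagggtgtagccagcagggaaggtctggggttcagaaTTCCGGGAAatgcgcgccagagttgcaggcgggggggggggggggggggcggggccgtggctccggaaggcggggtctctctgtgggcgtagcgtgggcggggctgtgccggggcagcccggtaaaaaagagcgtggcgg

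Both windows are rich in G and C, with 71.0% for Nt5e and 68.0% for Ada, and hold 23 and 20 CG pairs, where the median of all 32851 windows is 7. The letters searched on both strands were TTCNNNGAA, found in 8.3% of all windows, the hypoxia response core ACGTG in 19.6%, and the E2F forms TTTCGCGC in 0.323% and TTTGGCGC in 0.514%. Among the windows of Nt5e, Ada, Adora2b and Entpd1, the match in Ada was the only one. Such a match describes the letters and is not evidence of binding.

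Adora2a (chr10:75316877-75334784, plus strand), the main adenosine receptor gene of T cells, was low. It was at 0.561, 0.358 and 0.759 FPKM in the vehicle tumors, 0.706, 0.478 and 0.834 FPKM with palbociclib, 0.268, 0.0725 and 0.597 FPKM with anti-PD-1, and 0.739, 0.414 and 0.706 FPKM with the combination. The 2 lowest tumors were anti-PD-1 replicates 1 and 2, the latter with an estimated 4 fragments, and the ranges of all arms overlapped. The palbociclib effect was 0.62 (SE 0.323, 95% interval -0.09 to 1.33, limma adjusted p = 0.299), it was 0.36 without anti-PD-1 replicate 2, and within it palbociclib against vehicle was 0.25 (SE 0.457, limma adjusted p = 0.816).

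Adora2b (chr11:62248984-62266453, plus strand), a receptor gene known from myeloid and stromal cells, overlapped across arms. Its level was 4.86, 3.27 and 7.86 FPKM in the vehicle tumors, 7.12, 5.07 and 5.69 FPKM with palbociclib, 5.72, 5.11 and 6.88 FPKM with anti-PD-1, and 5.82, 4.67 and 5.89 FPKM with the combination. The highest and lowest tumors were both from the vehicle arm, so the vehicle arm spanned all others. The palbociclib effect was 0.06 (SE 0.186, 95% interval -0.35 to 0.47, limma adjusted p = 0.872). As a fold the interval was 0.786 to 1.39, which leaves out a doubling but not differences within these bounds. Itpripl2 (r = 0.888), Arel1 and Naa25 were among the genes with the most similar patterns.

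Ido1 (chr8:24584136-24597009, minus strand), the tryptophan enzyme, was close to the limit of detection. It was at 0.0708, 0.0711 and 0.0540 FPKM in the vehicle tumors, 0.101, 0.295 and 0.132 FPKM with palbociclib, 0.0573, 0.101 and 0.0592 FPKM with anti-PD-1, and 0.342, 0.0319 and 0.304 FPKM with the combination. Of the 6 palbociclib-treated tumors, 4 were above all untreated tumors, palbociclib replicate 1 was level with anti-PD-1 replicate 2 (3 fragments each), and combination replicate 2 was below all untreated tumors. In fragments, the vehicle tumors each held about 2 (exact Poisson 95% interval 0.242 to 7.22), and the highest, combination replicate 1, held 10 (4.80 to 18.4). Over the arms this was 35 fragments in the treated and 13 in the untreated tumors, a ratio per sequenced fragment of 2.91 with an exact 95% interval of 1.5 to 6.0 that covers counting error only. Between tumors, the palbociclib effect was 0.71 (SE 0.325, 95% interval -0.00402 to 1.43) and did not pass in limma (unadjusted p = 0.0511, adjusted p = 0.245).

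Genes of the interferon gamma response showed the same order of tumors as Ido1 in part. The sum of 6 such genes was 90.9, 48.6 and 71.5 FPKM in vehicle, 84.3, 66.5 and 57.7 FPKM in anti-PD-1, 175, 211 and 232 FPKM in palbociclib and 262, 87.0 and 271 FPKM in combination tumors. Combination replicate 2 was again apart from the other palbociclib-treated tumors, with 0.145 FPKM of Ifng and 7.35 FPKM of Cxcl9, where combination replicates 1 and 3 had 54.0 and 50.2 FPKM of Cxcl9. All 6 genes were higher with palbociclib, by a median of 1.3, and 2 passed in limma at an adjusted p under 0.05. Summed T cell markers were also lower in untreated (0.583 to 2.42 FPKM) than in palbociclib tumors (2.65 to 5.15 FPKM), with 1.7 FPKM in combination replicate 2 and 5.13 and 4.33 FPKM in the others of that arm, and 0 of the 3 genes were called in limma (3 at an unadjusted p under 0.05). Dendritic cell markers were higher with palbociclib for all 8 genes tested, by a median of 1.23 (0 called in limma, 7 at an unadjusted p under 0.05), with 21.1 FPKM in combination replicate 2 and 48.6 and 44.1 FPKM in the others of that arm. The part of these lists in the Ido1 values was not tested.

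**Figure D3:**
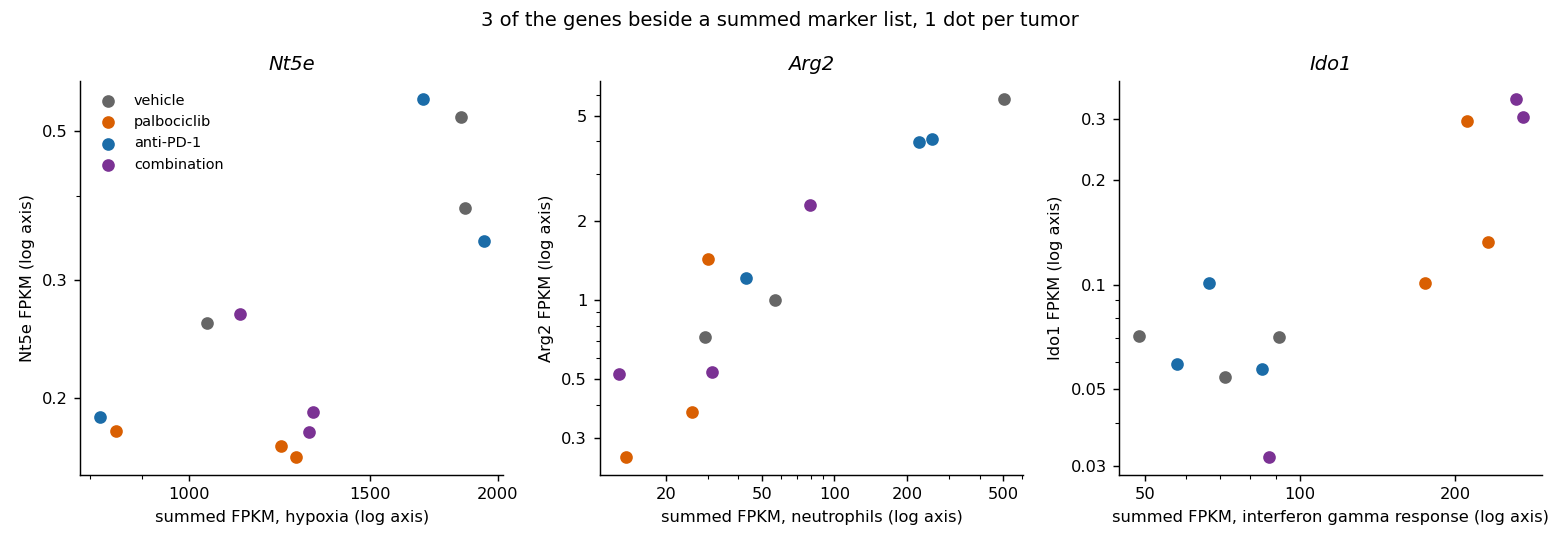
FPKM of Nt5e, Arg2 and Ido1 in each of the 12 tumors against the summed FPKM of hypoxia, neutrophil and interferon gamma response genes, in that order, with log axes and colors for the 4 arms. The 2 untreated tumors with the lowest hypoxia sums have the least Nt5e of the untreated, the palbociclib-treated tumors have sums of 848 to 1320 FPKM, Ido1 is highest where the interferon sum is above 260 FPKM, and Arg2 is highest where the neutrophil sum is above 200 FPKM.

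Arginase 1, a marker of suppressive macrophages, was the most abundant of the 9 genes. Arg1 (chr10:24915221-24927484, minus strand) was at 35.7, 43.5 and 55.1 FPKM in the vehicle tumors, 59.6, 24.6 and 9.69 FPKM with palbociclib, 49.2, 44.0 and 55.6 FPKM with anti-PD-1, and 34.9, 21.95 and 65.4 FPKM with the combination. The untreated tumors were alike, while the palbociclib-treated ones lay on both sides of them, 4 below and 2 above. Vehicle averaged 44.8 ± 9.74 FPKM (SD, n = 3) and palbociclib 31.3 ± 25.6 FPKM. The palbociclib effect was -0.64 (SE 0.387, 95% interval -1.49 to 0.21, limma adjusted p = 0.365), and it was -0.31 without palbociclib replicate 3 and -0.96 without palbociclib replicate 1. Summed markers of alternatively activated macrophages were 61.5 to 95.8 FPKM in palbociclib, 18.5 to 54.8 FPKM in vehicle, 19.7 to 56.8 FPKM in anti-PD-1 and 42.6 to 93.8 FPKM in combination tumors, so the palbociclib and vehicle arms stood the other way round from their Arg1 means. Within the palbociclib arm the sums (95.8, 83.0 and 61.5 FPKM) had the same order as Arg1. The marker Retnla (40.5, 10.6 and 14.3 FPKM) weighed on that order, which Mrc1 (38.2, 54.3 and 32.4 FPKM) did not have. Within the combination arm the sums (93.8, 43.2 and 42.6 FPKM) did not follow Arg1. Retnla weighed on this too, at 16.3 and 0.722 FPKM in replicates 2 and 3 and higher in replicate 1. Mrc1 (33.1, 19.2 and 31.3 FPKM) and Mgl2 were lowest in replicate 2, as Arg1 was, but Cd163 and Chil3 were not. Retnla and Chil3 were higher in every palbociclib than in every vehicle tumor, and the other markers overlapped. Retnla was highest in palbociclib replicate 1 and combination replicate 1, which also had the highest fat sums. All 5 markers were higher with palbociclib, 1 passed in limma and 3 had an unadjusted p under 0.05, and their part in the Arg1 values was not tested. Its nearest patterns were those of Foxc2 (r = 0.908), Plxna4, Itsn2 and Pkn3.

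Arginase 2, the mitochondrial arginase, had the largest fitted difference of the 9 genes. Arg2 (chr12:79130777-79156301, plus strand) was at 0.723, 0.999 and 5.80 FPKM in the vehicle tumors, 1.43, 0.377 and 0.254 FPKM with palbociclib, 1.21, 4.08 and 3.97 FPKM with anti-PD-1, and 0.525, 0.530 and 2.29 FPKM with the combination. The 3 highest tumors, vehicle replicate 3 and anti-PD-1 replicates 2 and 3, were untreated and the 4 lowest were palbociclib-treated, with overlap between them. An estimated 6 to 168 fragments per tumor were behind these values, with 6, 8, 12 and 13 in the 4 lowest. The palbociclib effect was -1.49 (SE 0.596, 95% interval -2.80 to -0.18), with an unadjusted p of 0.0294 and a limma adjusted p of 0.2. Arg2 overlaps Vti1b on the opposite strand, and whether the counting used strand is not given in the sources used here.

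Neutrophil markers were high in the same tumors. The sum of 4 neutrophil genes was 504 FPKM in vehicle replicate 3 and 254 and 225 FPKM in anti-PD-1 replicates 2 and 3, and 12.8 to 79.6 FPKM in the other 9 tumors. Arg2 levels tracked S100a9 (r = 0.946 over 12 tumors), Mllt11, Ptgs2 and Cxcl2, of which S100a9 is itself one of the neutrophil markers. All 4 markers were lower with palbociclib, by a median of -1.69, with 0 called in limma and 3 at an unadjusted p under 0.05. Their part in the Arg2 difference was not tested.

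The inducible nitric oxide synthase, which draws on the same arginine, spread most within arms. Nos2 (chr11:78920787-78960254, plus strand) was at 2.19, 5.17 and 26.8 FPKM in the vehicle tumors, 7.27, 3.39 and 2.001 FPKM with palbociclib, 0.985, 8.08 and 7.55 FPKM with anti-PD-1, and 10.2, 1.86 and 6.90 FPKM with the combination. Vehicle replicate 3 stood far above the rest, and without it the palbociclib effect went from -0.25 (SE 0.715, 95% interval -1.83 to 1.32, limma adjusted p = 0.865) to 0.24. No direction can be given for Nos2. Its pattern was most like those of Thbs2 (r = 0.918), Socs6, Grem1 and Grina. Arg1 exceeded Nos2 in every tumor, from 2.05 times in vehicle replicate 3 to 50 times in anti-PD-1 replicate 1, with 16.3 and 8.43 times in vehicle replicates 1 and 2 and 3.42 to 11.8 times in the palbociclib-treated tumors.

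The other genes of the 3 routes were taken from a list of 84, of which 83 were in the files and 66 were tested. With palbociclib 44 were higher and 22 lower, with a median of 0.11 beside 0.06 for all genes, and 0 passed in limma at an adjusted p under 0.05. At an unadjusted p under 0.05 there were 15, 10 higher and 5 lower. The adenosine list held 10 of these among 23 tested, the tryptophan list 2 among 15 and the arginine list 3 among 28, beside the 20.5% of all genes.

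Among the adenosine genes with the smallest p-values, the ATP receptor P2rx4 averaged 2.96 ± 0.555 FPKM in vehicle and 5.01 ± 0.326 FPKM in palbociclib tumors (SD, n = 3), a palbociclib effect of 0.57 (SE 0.163, limma adjusted p = 0.113). The concentrative nucleoside transporter Slc28a2 differed by 1.11 (SE 0.346, limma adjusted p = 0.128) and the nucleoside transporter Slc29a3 by 0.34 (SE 0.0975, limma adjusted p = 0.114). Pnp, the phosphorylase that acts on inosine after adenosine deaminase, averaged 16.9 ± 4.77 FPKM in vehicle and 28.7 ± 2.91 FPKM in palbociclib tumors, a palbociclib effect of 0.62 (SE 0.193, limma adjusted p = 0.128), and has a near-identical mouse copy that could share its reads. Dpp4, the surface protein that in humans binds adenosine deaminase, averaged 0.117 and 0.347 FPKM in vehicle and palbociclib tumors and differed by 1.14 (SE 0.398, limma adjusted p = 0.157). Lower were the AMP deaminase Ampd3 (-0.64, SE 0.22) and the nucleotide receptor P2ry2 (-0.44, SE 0.157), and the ectoenzyme relative Entpd6 differed by 0.22. None of these passed the threshold.

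**Figure D4:**
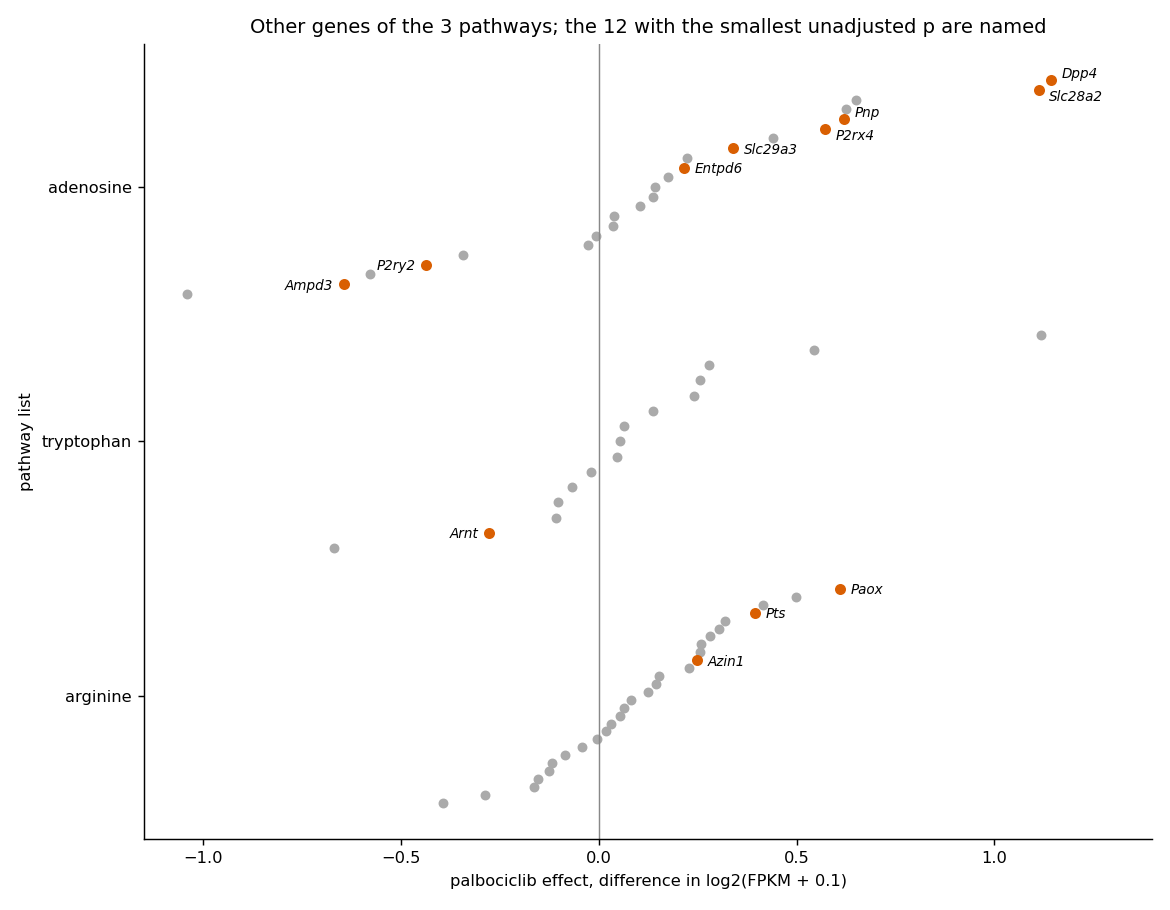
Palbociclib effect, as the difference in log2(FPKM + 0.1), of the 66 tested genes on the adenosine, tryptophan and arginine lists (points), with the 12 genes of smallest p-value named. Most points lie between -1 and 1, 44 are above 0 and 22 below, and 0 had an adjusted p-value under 0.05 in limma.

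In the tryptophan list the aryl hydrocarbon receptor partner Arnt was the only gene among the 12 with the smallest p-values, with a palbociclib effect of -0.28 (SE 0.0952, limma adjusted p = 0.154). In the arginine list these were Azin1, the antizyme inhibitor that spares ornithine decarboxylase, at 0.25 (SE 0.0755), Pts, an enzyme of the tetrahydrobiopterin cofactor of nitric oxide synthases, at 0.40 (SE 0.129), and the polyamine oxidase Paox at 0.61 (SE 0.214). Their limma adjusted p-values were 0.125, 0.143 and 0.162.

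The remaining comparisons of the 9 genes were palbociclib and the combination, each against vehicle, the anti-PD-1 effect, and the interaction. Anti-PD-1 alone against vehicle was not tested. Those with vehicle share the same 3 vehicle tumors. Palbociclib against vehicle called 0 of the 9 in limma beside 0.143% of all genes, with Nt5e alone at an unadjusted p under 0.05 beside 13.8%. The combination against vehicle called 0 of the 9 beside 0.013% of all genes, and 0 of the 9 had an unadjusted p under 0.05 beside 17.0%. In that comparison Nt5e differed by -0.62 (SE 0.329, limma adjusted p = 0.346), Ada by 0.38 (SE 0.199, limma adjusted p = 0.347) and Ido1 by 0.80 (SE 0.46, limma adjusted p = 0.385).

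The anti-PD-1 effect, averaged over tumors with and without palbociclib, called 0 of the 9 in limma beside 0.0% of all genes, and 0 of the 9 had an unadjusted p under 0.05 beside 6.77%. The limma adjusted p-values ran from 0.744 for Adora2a to 0.978 for Nt5e. For Nt5e the difference was 0.04 (95% interval -0.48 to 0.55), for Ido1 0.09 (-0.63 to 0.80), and for Arg2 0.65 (-0.66 to 1.97). A difference of 1 on this scale was thus within the interval for Arg2 and not for Nt5e or Ido1. Ido1 is low beside the 0.1 FPKM added, so a doubling of its FPKM is less than 1 on this scale and is not excluded. The interaction, the difference between the palbociclib effects with and without anti-PD-1, also called 0 of the 9 in limma beside 0.0% of all genes, with 0 at an unadjusted p under 0.05 beside 5.73%. Its standard errors were 0.281 for Ada to 1.43 for Nos2, and its adjusted p-values 0.931 to 0.998. Ordered by mean, Nt5e ran from palbociclib over combination and anti-PD-1 to vehicle, Arg1 and Arg2 from palbociclib over combination and vehicle to anti-PD-1, and Ido1 and Ada from vehicle over anti-PD-1 and palbociclib to combination. Neighbouring arms in these orders overlapped, except that for Ido1 the highest anti-PD-1 and the lowest palbociclib tumor were both at 0.101 FPKM, from 3 fragments each.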

How the data were processed

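RNA of 12 tumors was measured, and the deposited values are FPKM made by the authors, 1 table per tumor. The submitters' processing notes name HISAT2 and GRCm38 (mm10), and the counting tool and annotation are not given in the sources used here. Among 34745 entries there were 67 repeats, of which only that with the largest mean FPKM entered. Gene lengths and positions came from GENCODE M21. Genes with a mean of at least 0.1 FPKM were put through limma 3.58.1 (R 4.3.3) as log2(FPKM + 0.1), with these settings (1 mean per arm, eBayes with trend, Benjamini-Hochberg adjustment, threshold 0.05). In simulated data, where the palbociclib effect of 200 of 15350 genes was set to 1 (log2), 137 were recovered with 7 false calls, and at 2, 182 with 5. In the measured data, the standard error of the palbociclib effect was 0.14 to 0.715 for the 9 genes, beside a median of 0.137 for all genes. Recovery at the standard errors of the 9 genes was not tested. Fragments were estimated from the steps of low FPKM values, of which 45.5% to 48.8% per tumor were whole within 0.05 of a fragment. The largest distance from a whole number was 0.003 for Ido1, 0.416 for Adora2a and 0.489 for Nt5e. The estimates for Adora2a and Nt5e are therefore approximate. No pair of tumors had identical values. All 9 genes are named, with the 12 pathway genes of smallest p-value in the palbociclib effect and, for genes with a mean of at least 1 FPKM, the 4 most similar patterns by Pearson correlation of log2 values over 12 tumors, of which 1 gene is not reported here. Genes and lists were chosen with earlier results of these data known. Alternatives were pseudocounts of 1 and 0.01, filters at 1 FPKM or none, TPM, quantile normalization, eBayes without trend, a replicate block, only the arms compared, and leaving out tumors. Figures were drawn with matplotlib 3.10.9.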

Additional observations from a re-analysis of the deposited data

How the results depend on the processing

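The count of the 9 genes past the threshold was 0 in all 107 alternatives run over the 5 comparisons. Nt5e, Adora2a and Ido1, with means under 1 FPKM, were not tested in the fits with a filter at 1 FPKM. The lowest limma adjusted p of any of the 9 genes in the palbociclib effect was 0.054, for Nt5e with 1 tumor left out. Leaving out 1 tumor moved its difference between -0.81 and -0.51, that of Arg2 between -1.81 and -1.05, that of Ido1 between 0.56 and 0.99, that of Ada between 0.21 and 0.39, that of Adora2a between 0.36 and 0.86, that of Arg1 between -0.96 and -0.31, and that of Entpd1 between 0.06 and 0.45 (unadjusted p = 0.0302 and limma adjusted p = 0.212 without combination replicate 2). The direction of Adora2b turned without vehicle replicate 2 (-0.0873) and palbociclib replicate 1 (-0.00403), within a range of -0.0873 to 0.223, and that of Nos2 without vehicle replicate 3 (0.24) and combination replicate 2 (0.0984), within a range of -0.73 to 0.24. The cause of these turns was not tested. Without the 4 tumors named in the next paragraph, which leaves 1 tumor in each palbociclib-treated arm, Nt5e was at -0.52, Arg2 at -1.27 and Ido1 at 0.87. In the same fit Arg1 was at -0.88, Ada at 0.35, Adora2a at 0.87, Entpd1 at 0.28, Adora2b at 0.09 and Nos2 at -0.46.

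The calls over all genes were fragile. For the palbociclib effect the 48 calls became 11 with no filter, 0 without trend and 12 without 4 of the 6 tumors high in fat, skin or muscle genes (palbociclib and combination replicates 1 and 2, which leaves 1 tumor in each of these arms, assumed to vary like the others). Palbociclib replicate 3 and vehicle replicate 1, with muscle markers of 164 and 54.1 FPKM, stayed in, so this does not remove host tissue. They ranged from 0 to 758 with 1 tumor left out, with 758 without anti-PD-1 replicate 1, 692 without vehicle replicate 1, 264 without combination replicate 2 and at most 10 without each other tumor. For palbociclib against vehicle (22) they were 1 with quantile normalization, 6 without trend, 0 with only the arms compared and 1 to 46 with 1 tumor left out. For the combination (2) they were 5 with pseudocount 0.01, 1 without trend, 0 with only the arms compared and 0 to 5 with 1 tumor left out. For anti-PD-1 (0) they were 1 with a filter at 1 FPKM, 3 with no filter, 6 without these 4 tumors and 0 to 1 with 1 left out. For the interaction (0) they were 1 with pseudocount 0.01 and with TPM, 2 with a filter at 1 FPKM and with quantile normalization, 7 with no filter and without these 4 tumors, and 0 to 3 with 1 left out. The pathway list (0 called) gave 0 to 6 with 1 tumor left out, 6 without anti-PD-1 replicate 1 and 1 each without vehicle replicate 1 and combination replicate 2.

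Whether replicate numbers pair the tumors was not settled. Of 18 pairs with the same number, 7 correlated above 0.1 in their deviations (median 0.028, -0.213 to 0.453). Of 36 pairs with other numbers, 9 did so (median -0.013, -0.353 to 0.309). With the replicate block the palbociclib effect had 129 calls, palbociclib against vehicle 51 and the combination 1. Counting error limits Ido1 (1 to 10 fragments per tumor) and Adora2a (4 to 47) most.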
